A study of Solanum lycopersicum with 18 samples.

Results

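The genes described here are the 200 tomato genes whose expression differed most between *dgt* and WT roots in the elongation zone relative to their difference in the meristem and the differentiation zone. For each zone, L was the log2 ratio of the mean *dgt* TPM + 1 to the mean WT TPM + 1, where TPM, a length-scaled measure of transcript abundance, scales a gene's reads by its length and by the library total. The score of a gene was the size of L in the elongation zone minus the larger of its sizes in the other zones, and the 200 highest of 29922 genes were taken, leaving out cuAO, whose score was 1.22. Of these members, 168 were higher in the *dgt* elongation zone and 32 were lower. Members were thus chosen by the mean TPM values of both genotypes in all zones, so the *dgt* to WT ratios given below describe them and are no test. After TMM scaling of the TPM values, which moved the median L of 19887 expressed genes in the elongation zone from 0.27 to -0.01, the same rule took 137 higher and 63 lower genes. With the pseudocount of 1 TPM replaced by 0.1 TPM it kept 84 of the 200 members, and with 5 TPM it kept 117.

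Roots came from 7-day-old seedlings of 'Ailsa Craig' tomato, either WT or carrying the *dgt1-1* allele, and were dissected into meristem, elongation zone and differentiation zone, the last a portion of 1 cm. Each library pooled 50 to 100 root portions, and each of the 6 combinations of genotype and zone had 3 biological replicates, giving 18 libraries with expected count totals between 17919441 and 29133603. No other genotype or treatment entered, and both genotypes shared the growth conditions. The *dgt* line is 1 mutant allele in 1 background. No gene carried the name DGT in the files, where it may stand under another name, so the mutated gene was not checked. WT meristem replicate 2 stood apart from the other WT meristem libraries, with a chi-square per degree of freedom of 142.6 and 135.8 against them while the other pair had 14.1, and the main counts that use the WT meristem are also given without it.

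The root tip is a line of developmental steps. Cells divide in the meristem, lengthen in the elongation zone as their walls loosen, and take on mature functions such as root hair formation, transport and wall thickening in the differentiation zone. DGT is a cyclophilin A, a peptidyl-prolyl isomerase needed for normal auxin responses, and *dgt* roots lack lateral branches.

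The higher members were low as a set in the WT elongation zone, although the highest mean there was 48.5 TPM. Their median TPM was 0.57, 1.27 and 0.75 across the 3 WT elongation zone libraries and 14.9, 13.2 and 17.5 in the *dgt* ones, and 88 of the 168 had a mean below 1 TPM in WT. Together they took 0.0399 to 0.0626% of all TPM in WT elongation zone libraries and 0.547 to 0.765% in *dgt*. In the differentiation zone, their share was already 0.449 to 0.598% in WT and 1.24 to 1.32% in *dgt*. In such whole tissue, fewer cells of a type and less RNA per cell cannot be told apart. The lower members moved the other way, with a median of 26.1, 27.8 and 27.5 TPM in the WT elongation zone and of 6.01, 6.11 and 5.78 TPM in *dgt*. Within each group, replicates were uneven. WT elongation replicate 2 was the highest of its group for 104 of 144 higher members without ties, and *dgt* elongation replicate 3 for 109 of 166.

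The label of a change in the elongation zone alone held for part of the set only. The median L of the higher members was 2.82 in the elongation zone (range 1.10 to 7.39), 1.02 in the differentiation zone (-0.72 to 4.64) and 0.64 in the meristem (-2.41 to 3.56, or 0.65 without WT meristem replicate 2). Only 66 of the 168 had less than a 2-fold ratio in both of the other zones, 86 were more than 2-fold higher in the differentiation zone too, 63 in the meristem (66 without WT meristem replicate 2), and 48 in all zones (52 without it). The lower members were closer to the label, with a median L of -1.90 in the elongation zone (-4.04 to -1.10), -0.27 in the differentiation zone and -0.04 in the meristem, and 28 of the 32 stayed under 2-fold in both other zones (27 without WT meristem replicate 2). They are therefore called members of the elongation zone set here, higher or lower by their direction there.

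**Figure D1:**
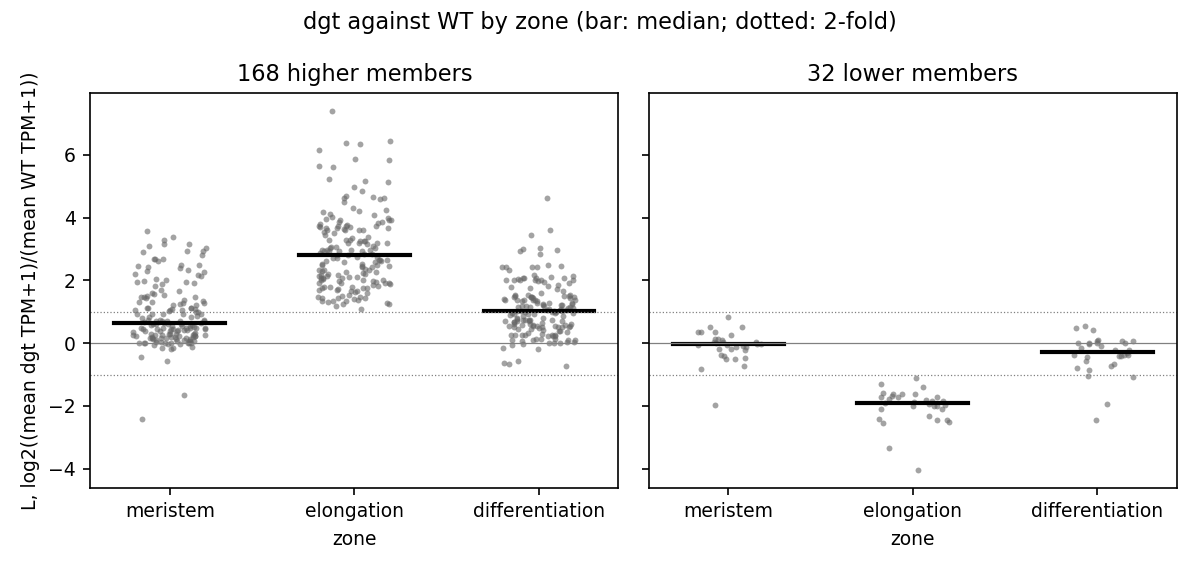
L, the log2 ratio of mean *dgt* TPM + 1 to mean WT TPM + 1 (vertical axis), of each member (points) in the 3 zones (horizontal axis), with the median as a bar and 2-fold as dotted lines. The 168 higher members have medians of 0.64, 2.82 and 1.02 from meristem to differentiation zone and the 32 lower members -0.04, -1.90 and -0.27.

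In the elongation zone, 164 of the 168 higher members had every *dgt* library above every WT library, a pattern that 42.1% of the genes tested there showed, and 158 were called higher by edgeR's quasi-likelihood test (8 were too low to be tested), as were 9.68% of all tested genes. Of the 32 lower members, 27 had every *dgt* library below every WT library against 7.86% of tested genes, and 25 were called lower against 4.32%, with 7 not tested. In the meristem, 73 higher members were called higher and 1, LOC101256987, was called lower, with 35 not tested, beside 10.1% and 2.72% of tested genes, and 2 lower members, LOC543878 and LOC101267720, were called lower, with 14 not tested. Without WT meristem replicate 2, 90 higher members were called higher there and 2 lower, beside 12.5% and 7.45% of tested genes. Every *dgt* meristem library was above every WT one for 111 higher members (31.6% of tested genes) and below for 7 lower members (9.89%). Without WT meristem replicate 2 these were 117 higher members (34.8% of tested genes) and 11 lower members (34.2%), and no overlap is then met more easily, with 2 WT libraries. In the differentiation zone, 84 higher members were called higher, with 16 not tested, beside 8.54% of tested genes, and 6 lower members lower, with 8 not tested, beside 4.47%. There the libraries did not overlap for 131 higher members (28.7%) and 10 lower ones (14.8%). The counts of libraries without overlap, and their shares of tested genes, are of TPM without TMM scaling, while the edgeR calls use TMM. With TMM, the median log2 fold change of all genes tested in the elongation zone was 0.0075. The rule used these contrasts, so the counts are a description only.

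The score ran from 1.05 to 4.42 with a median of 1.37, and the limit fell within a dense range. LOC104647575, at rank 199, had a score of 1.05 with L of 1.74 in the elongation zone. LOC101258429, the last member, had an L of 3.85 in the elongation zone, 2.80 in the meristem and 1.71 in the differentiation zone. The first genes left out, LOC112942039 and LOC104646582, both had a score of 1.05, with L of 2.37 and 1.48. The limit thus divided genes of nearly equal score.

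LOC101248516 had the highest score. Its TPM in the WT elongation zone was 0.19, 2.44 and 0.75 and in *dgt* 256, 297 and 514, so the 3 *dgt* libraries lay far above the 3 WT libraries, with an L of 7.39. In the differentiation zone it was at 22.3, 76.4 and 117 TPM in WT and 409, 819.7 and 479 in *dgt*, again without overlap. In the meristem the genotypes overlapped, at 1.10, 13.9 and 2.89 TPM in WT and 13.1, 2.39 and 10.0 in *dgt*. The *dgt* elongation zone thus exceeded every WT differentiation zone library for this gene. LOC101266136, which ranked next, went from 0.81, 2.18 and 0.10 TPM in the WT elongation zone to 149.7, 125 and 258 in *dgt*, with WT differentiation zone values of 56.0, 77.4 and 80.3 between them.

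LOC112941248 and LOC104646779 are neighbours. The TPM of LOC112941248 in the elongation zone was 3.35, 7 and 1.16 in WT and 125, 83.0 and 156 in *dgt*, beside 123, 159 and 143 in the WT differentiation zone. LOC104646779 had 1.76, 4.94 and 1.28 TPM in WT and 76.9, 63.7 and 105 in *dgt*, beside 63.9, 87.8 and 83.0 in the WT differentiation zone. For both genes the *dgt* elongation zone libraries overlapped the WT differentiation zone libraries and stood apart from the WT elongation zone. LOC104646777, next to them, had the highest mean TPM of the higher members over the 6 elongation zone libraries, at 12.2, 27.4 and 4.93 TPM in the WT elongation zone and 368, 306 and 463 in *dgt*.

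Glb2 encodes a nonsymbiotic hemoglobin, of a family that binds oxygen and nitric oxide. In WT, its TPM dipped in the elongation zone to 1.47, 1.42 and 1.32, between 12.4, 13.4 and 11.8 in the meristem and 15.9, 24.7 and 35.1 in the differentiation zone. In *dgt* no such dip was seen, with 61.6, 56.0 and 47.7 TPM in the meristem, 91.1, 99.3 and 63.6 in the elongation zone, then 78.6, 71.8 and 70.9 in the differentiation zone. Every *dgt* library exceeded every WT library in each zone, and L was 5.16 in the elongation zone against 2.05 and 1.51 in the meristem and differentiation zone.

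The other higher members with the highest scores were LOC109119816, LOC101251041, LOC101255648, LOC101252233, LOC101248973, LOC101244627 and LOC101251718. LOC109119816 went from 0.22, 0.46 and 0.21 TPM in the WT elongation zone to 91.6, 84.9 and 144 in *dgt*. LOC101255648 had 0, 0.32 and 0.21 TPM in WT and 58.3, 48.8 and 96.9 in *dgt*. LOC101244627, the neighbour of LOC109119816, had 0.56, 0.99 and 0.55 TPM in WT and 83.9, 79.9 and 125 in *dgt*. None of these exceeded 1 TPM in a WT elongation zone library. LOC101248973 had 0.31, 1.60 and 0.12 TPM in WT and 39.0, 29.9 and 87.1 in *dgt*. LOC101251718 was lower in level, at 0.26, 1.24 and 0 TPM in WT and 8.06, 4.55 and 18.9 in *dgt*. In all of these the groups did not overlap.

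LOC101251041 and LOC101252233 differed from the rest in that WT had almost none in any zone. LOC101251041 was at 15.7, 10.5 and 13.4 TPM in the *dgt* elongation zone, beside 0.09, 0.09 and 0.04 in WT, and did not exceed 0.94 TPM in any other *dgt* library. LOC101252233 was at 151, 167 and 73.2 TPM in the *dgt* elongation zone and 0.58, 0.69 and 1.19 in WT, with 20.8, 24.3 and 20.1 in the *dgt* meristem and 3.72, 1.38 and 4.53 in the *dgt* differentiation zone. Its *dgt* level thus peaked in the elongation zone.

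**Figure D2:**
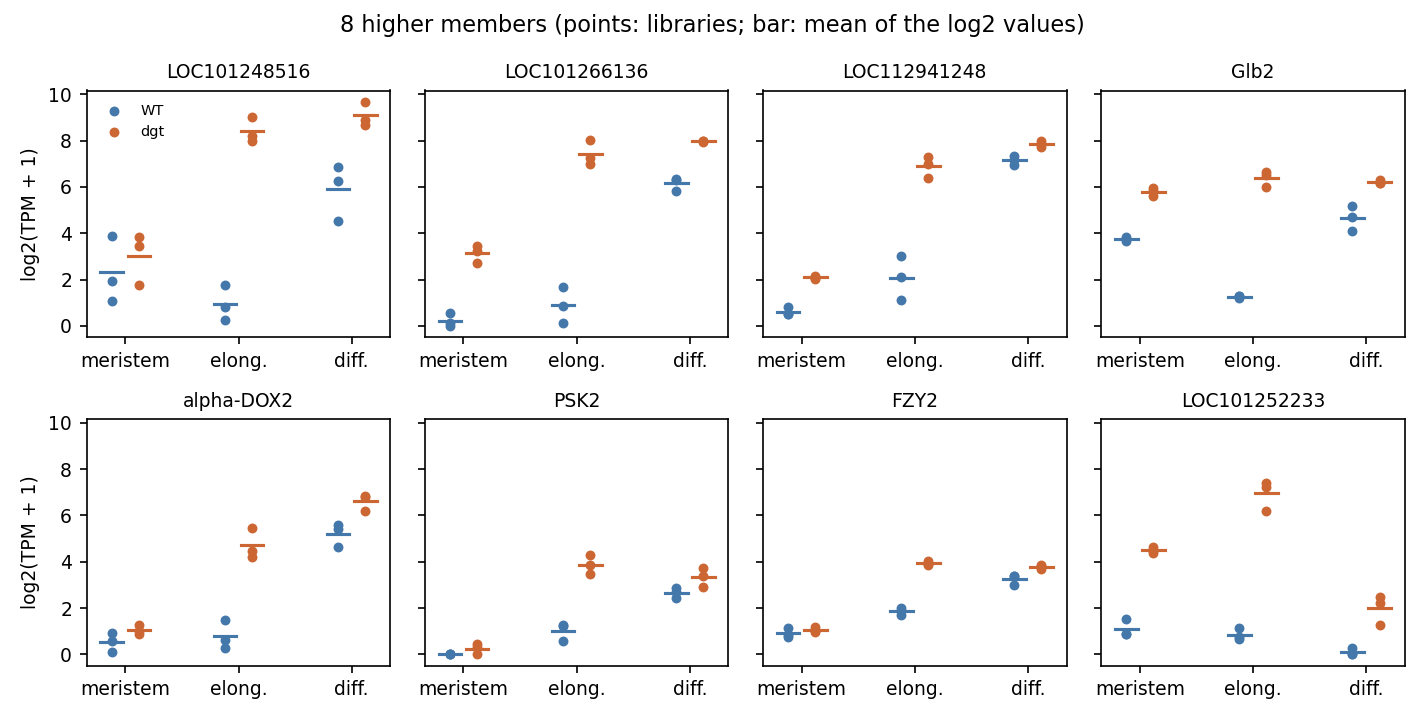
TPM on the log2(TPM + 1) scale (vertical axis) of 8 higher members in each library of the 3 zones (horizontal axis), WT in blue and *dgt* in orange, with the mean of the log2 values as a bar. In the elongation zone every *dgt* point lies above every WT point, and for LOC101248516 the *dgt* elongation values of 256, 297 and 514 TPM lie above the WT differentiation values of 22.3, 76.4 and 117.

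Among abundant higher members, ltpg1, a lipid transfer protein gene, had 5.78, 10.5 and 5.22 TPM in the WT elongation zone and 259, 220.2 and 373 in *dgt*, and LOC101254223 had 1.5, 5.28 and 4.49 in WT and 214, 188 and 305 in *dgt*. LOC101258429 had 12.7, 26.8 and 24.4 in WT and 302, 261 and 395 in *dgt*. All 3 were also higher in the other zones of *dgt*. The catalase gene cat1, whose enzyme removes hydrogen peroxide, went from 0.83, 1.27 and 0.86 TPM in the WT elongation zone to 116, 96.5 and 266 in *dgt*, but its L of 6.34 there came with 4.64 in the differentiation zone.

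Genes of fatty acid oxygenation lay in both directions. alpha-DOX2 encodes an alpha-dioxygenase that adds oxygen to fatty acids, and its TPM in the elongation zone was 0.21, 1.79 and 0.56 in WT and 21.0, 17.3 and 43.6 in *dgt*. The WT differentiation zone held 23.8, 47.5 and 41.7, so the *dgt* elongation zone overlapped the WT differentiation zone. DES, the divinyl ether synthase that turns fatty acid hydroperoxides into divinyl ethers, was a lower member, at 101, 77.0 and 80.6 TPM in the WT elongation zone and 9.98, 7.47 and 5.32 in *dgt*. DES was also lower in the differentiation zone, where WT had 22.5, 15.8 and 22.8 TPM and *dgt* 3.41, 4.83 and 5.60. Of 16 genes on the jasmonate, oxylipin and wounding list, these were the only members, and 6 were called higher and 2 lower in the elongation zone among 15 tested.

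Auxin was represented by FZY2 and LOC101251833. FZY2 is a YUCCA-like flavin monooxygenase, the enzyme type that makes auxin from indole-3-pyruvate, and was at 2.26, 3.03 and 2.66 TPM in the WT elongation zone and 15.3, 13.5 and 14.1 in *dgt*. Its *dgt* replicates were tight and lay above all 3 WT differentiation zone values of 6.99, 9.47 and 9.31. LOC101251833, which the reference table names GH3-4, belongs to the family that attaches amino acids to auxin, and was at 1.82, 1.66 and 1.37 TPM in WT and 21.5, 14.5 and 37.1 in *dgt*. In WT it was highest in the meristem (8.24, 8.10 and 12). Of 74 auxin genes on the list these were the only members, and 13 were called higher and 5 lower in the elongation zone of 66 tested.

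PSK2, a precursor of phytosulfokine, a sulfated peptide signal that promotes cell growth, was at 0 in all WT meristem libraries. It was at 1.32, 0.48 and 1.44 TPM in the WT elongation zone and 18.4, 9.97 and 13.4 in *dgt*. The *dgt* elongation zone also exceeded the WT differentiation zone (6.21, 4.46 and 5.56). In the WT differentiation zone PSK2 was at least 14.3-fold higher than in the WT meristem, counting 3 reads per library as the lowest detectable level.

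Rubisco is the enzyme of carbon fixation that green tissue makes in large amounts. The 3 genes of its small subunit that were found by symbol were higher members. They were not on a planned list, so this count is a description only. rbcS1 was at 0.49, 1.41 and 0.38 TPM in the WT elongation zone and 11.8, 8.89 and 20.4 in *dgt*. LOC543974, named RBCS-2A in the reference table, was at 2.15, 2.86 and 1.56 in WT and 36.3, 34.0 and 48.2 in *dgt*, and Rbcs-3B at 0.78, 1.8 and 0.65 in WT and 14.8, 11.5 and 16.8 in *dgt*. In the differentiation zone of *dgt*, LOC543974 reached 85.2, 87.7 and 89.7 TPM and rbcS1 46.1, 41.2 and 43.7. The genotypes did not overlap for any of them in the elongation or the differentiation zone. Summed over the 3 genes, WT ranged from 2.59 to 6.07 TPM in the elongation zone and *dgt* from 54.4 to 85.5.

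Wall and suberin genes were few. TLRP, a tyrosine- and lysine-rich wall protein, had 0.69, 0.66 and 0.27 TPM in the WT elongation zone and 31.8, 10.0 and 17.0 in *dgt*. TBG5, a beta-galactosidase that trims wall galactans, had 2.28, 6.19 and 5.14 in WT and 25.2, 25.5 and 25.9 in *dgt*, with the *dgt* replicates close together. LOC101260021, named TPG7 in the reference table, is of the polygalacturonases that cut pectin, and had 0.27, 0.63 and 0.58 in WT and 15.7, 21.9 and 11.3 in *dgt*. SlGPAT6, a glycerol-3-phosphate acyltransferase of cutin and suberin building, had 0, 0 and 0.04 in WT and 4.17, 2.25 and 8.09 in *dgt*. TLRP, TBG5 and LOC101260021 were the members among 47 on the wall list, of which 6 were called higher and 5 lower among 37 tested.

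Transporters of the ABCG family, ATP-driven exporters of which several carry wax, cutin or suberin precursors, supplied 3 higher members. They were LOC101249450 (ABCG6), at 0, 0.03 and 0 TPM in the WT elongation zone and 9.49, 7.55 and 16.7 in *dgt*, LOC101251002 (ABCG42), at 0.03, 0.08 and 0 in WT and 7.09, 5.77 and 12.5 in *dgt*, and LOC101254798 (ABCG13), at 3.39, 8.92 and 2.51 in WT and 53.4, 42.5 and 73.2 in *dgt*. All 3 were called higher in *dgt* in every zone. They were the only members among 110 genes on the transporter list, of which 13 were called higher and 6 lower in the elongation zone among 82 tested. Of the transcription factor list, with 112 genes and 11 called higher and 5 lower among 77 tested, LOC101256424 (MYB49) and LOC101264826 (SlWRKY31) were members, at 0.37, 0.41 and 0.12 TPM in WT and 17.3, 12 and 22.0 in *dgt* for the first, and 0.19, 0.36 and 0.24 in WT and 4.21, 1.77 and 2.59 in *dgt* for the second. No gene of the ethylene (89), abscisic acid and water stress (5), heat shock (16) or cytokinin and gibberellin (22) lists was a member, which is a fact of the rule and says nothing of their change. In the elongation zone, 6 ethylene genes were called higher and 7 lower, and 7 heat shock genes higher and 1 lower. Of the abscisic acid and water stress list (LEA14, LeNCED1, PP2C-1, PP2C-2 and TAS14), 4 were called higher and 0 lower. Of the cytokinin and gibberellin list, 4 of 16 tested genes were called lower.

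SUN, which shapes tomato fruit and belongs to the IQ-domain proteins, peaked in the elongation zone in both genotypes, at 3.14, 5.66 and 3.89 TPM in WT and 32.6, 33.6 and 27.1 in *dgt*. LOC101252796 (IPMS3), an isopropylmalate synthase of the leucine pathway, had 2.96, 3.16 and 2.43 TPM in WT and 12.8, 11.6 and 12.4 in *dgt*. LOC101267417 (CPT6), a cis-prenyltransferase, had 4.76, 10.2 and 7.79 in WT and 40.4, 24.9 and 71.4 in *dgt*, and LOC101267916 (VPE11), a vacuolar processing enzyme, 0.65, 1.25 and 1.18 in WT and 9.73, 8.09 and 8.25 in *dgt*. The higher members ASH3, spe4 and Q`b, named in the files without a role used here, had L of 2.12, 2.02 and 3.78.

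The lower members were led by LOC101247035, at 8.09, 6.44 and 6.51 TPM in the WT elongation zone and 0.49, 0.18 and 0.78 in *dgt*, with overlapping values in the differentiation zone (3.19, 3.95 and 4.07 in WT and 4.48, 4.36 and 3.21 in *dgt*). CrtR-b1 encodes a beta-carotene hydroxylase, which makes xanthophylls. In WT it was at 11.1, 14.7 and 15 TPM in the meristem, 88.3, 82.2 and 84.8 in the elongation zone, then 23.4, 21.6 and 18.7 in the differentiation zone, a peak in the elongation zone. In *dgt* this peak was not seen. The *dgt* elongation zone had 12.2, 10.6 and 19.2 TPM, which overlapped the *dgt* meristem (12.3, 12.8 and 16.5) and lay below the *dgt* differentiation zone (31.9, 27.1 and 31.8).

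By mean TPM over the 6 elongation zone libraries, the first of the lower members was LOC543878, which the reference table names PR5, a pathogenesis-related protein of the thaumatin family. It was at 691, 466 and 466 TPM in the WT elongation zone and 41.1, 31.0 and 23.7 in *dgt*, the lowest L of the set at -4.04. The groups did not overlap in the other zones either, at 30.2, 49.1 and 25.5 against 9.06, 9.58 and 5.71 in the meristem and 1231, 994 and 1341 against 182, 214 and 260.2 in the differentiation zone. LOC101249913 was at 172, 173 and 173 in WT and 32.4, 36.2 and 32.0 in *dgt*, with replicates close together. LOC101261786 was at 117, 136 and 182 in WT and 48.6, 30.1 and 27.4 in *dgt*, and LOC101245696 at 51.8, 145 and 77.8 in WT and 27.7, 32.7 and 22.6 in *dgt*.

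Several lower members differed in the elongation zone and overlapped in the differentiation zone. LOC101248159 was at 19.3, 22.4 and 36.9 TPM in the WT elongation zone and 6.06, 5.46 and 6.45 in *dgt*, but at 221, 162 and 187 in WT and 197, 151 and 207 in *dgt* in the differentiation zone, where the genotypes overlapped. Its neighbour LOC101247879 was at 65.7, 59.9 and 80.7 in WT and 19.9, 11 and 21.0 in *dgt* in the elongation zone, and at 404, 282 and 259 in WT and 284, 229.9 and 299.8 in *dgt* in the differentiation zone. LOC101264274 had 8.25, 15.3 and 8.68 in WT and 1.56, 2.38 and 1.89 in *dgt*, then 44.1, 77.4 and 82.9 in WT and 62.9, 70.1 and 71.6 in *dgt*. LOC101263363 was nearly confined to the WT elongation zone, at 7.32, 5.88 and 7.94 TPM there and at most 0.71 in the other WT libraries, and had 1.32, 1.58 and 1.00 in the *dgt* elongation zone. LOC101255443 had 56.0, 48.2 and 50.6 in WT and 11.5, 10.7 and 14.2 in *dgt* in the elongation zone.

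**Figure D3:**
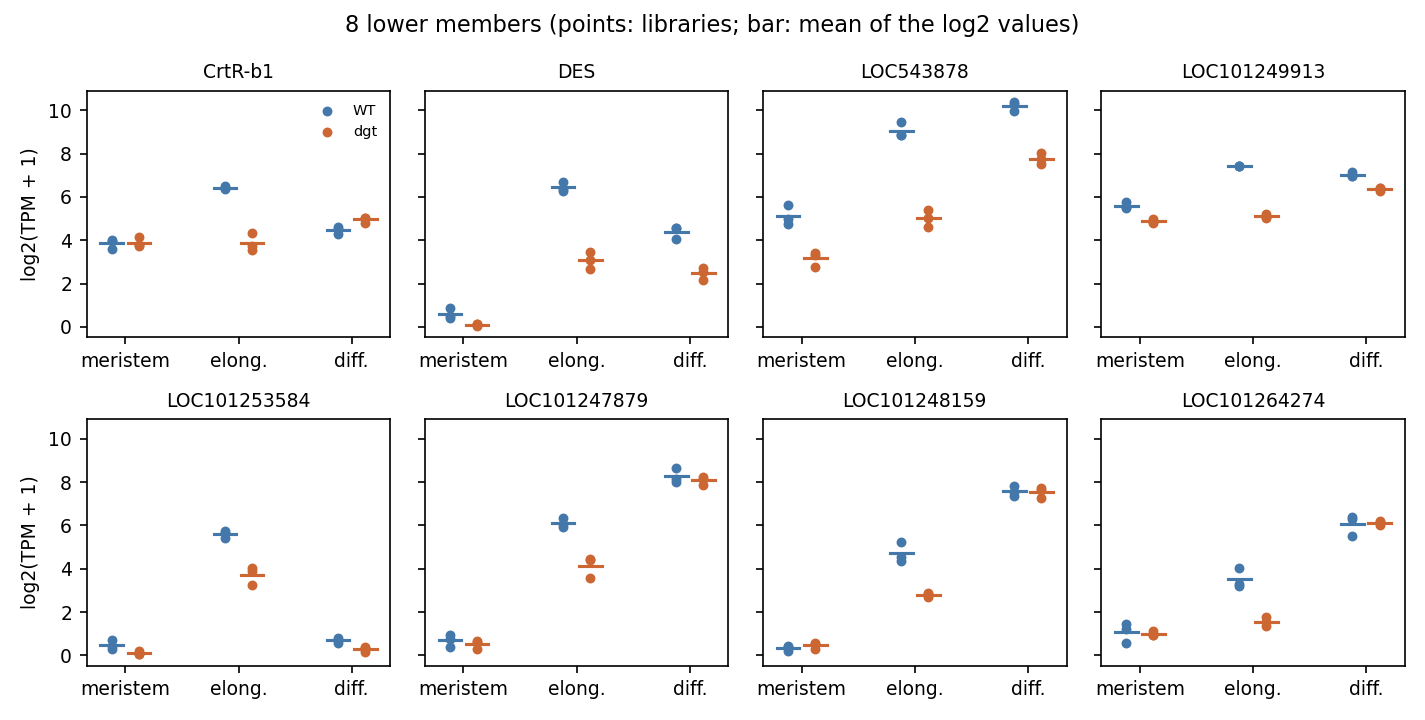
TPM on the log2(TPM + 1) scale (vertical axis) of 8 lower members in each library of the 3 zones (horizontal axis), WT in blue and *dgt* in orange, with the mean of the log2 values as a bar. CrtR-b1 peaks in the WT elongation zone (88.3, 82.2 and 84.8 TPM) and lies at 12.2, 10.6 and 19.2 TPM in *dgt*, while LOC101248159 differs in the elongation zone and overlaps in the differentiation zone.

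Short RNAs need separate mention, because a single read gives a short gene a large TPM. Of the 32 lower members, 8 had an effective length under 100 bases (7 small nucleolar RNAs, which guide RNA modification, and 1 small nuclear RNA), while 2.72% of all genes were this short. Only LOC112941234, a small nucleolar RNA, had many reads, with expected counts of 166, 109 and 166 in the WT elongation zone and 39, 28 and 64 in *dgt*. The other 7 had at most 20 expected counts in any elongation zone library, and LOC112941726 and LOC112941001, which scored high, had at most 4.65 and 3.87. Among the higher members 5 were this short. They are the tRNA genes TRNAS-AGA_12, TRNAP-UGG_3, TRNAL-UAG_1 and TRNAS-AGA_11, each with at most 2.03 expected counts in any library, and MIR156d, a precursor of a microRNA that holds plants in the juvenile phase, with 1, 3 and 4 counts in the *dgt* elongation zone and 0 in WT. At 3 counts per library as the lowest detectable level, no fold is given for these.

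The members were next asked for their place along the root with comparisons that leave out every elongation zone library. In WT, 111 of the 168 higher members were called higher in the differentiation zone than in the meristem, 12 lower and 16 neither, and 29 were too low to be tested. Of all genes tested, 30.3% were called higher and 25.8% lower. Of the 32 lower members, 21 were called higher and 1, LOC112941234, lower, with 8 not tested. In *dgt*, 119 higher members were called higher and 18 lower, with 8 not tested, and 21 lower members higher and 2, LOC112941234 and LOC112940230, lower, beside 29.5% and 28.8% of all tested genes. The filter kept members through the group where they were high, so the shares are of all members. In both genotypes alike, 128 members were called higher and 12 lower, as were 24.8% and 23.2% of the genes tested in both. Without WT meristem replicate 2, 116 higher members were called higher in WT and 11 lower, beside 30.1% and 26.0% of tested genes. These libraries also enter L of the outer zones, so the comparison is separate from the rule's contrast but not from its libraries.

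The members with the largest fitted folds between those zones in WT were at 0 in all WT meristem libraries, so that only a bound can be given. With 3 counts per library as the lowest detectable level, LOC101247647 was at least 152-fold higher in the WT differentiation zone, LOC104649376 at least 77.6-fold and LOC101262313 at least 43.5-fold. Members with reads in every WT meristem library had measured folds above these bounds. LOC101255148, a lower member, had 0.18, 0.17 and 0.25 TPM in the WT meristem and 118, 124 and 153 in the differentiation zone (log2 fold change 9.05, SE 0.27, edgeR adjusted p = 5.45e-07). LOC101248159 (log2 fold change 9.01, SE 0.38, edgeR adjusted p = 5.76e-07) and LOC101255443 (log2 fold change 8.62, SE 0.28, edgeR adjusted p = 5.45e-07), lower members too, followed. In the other direction, LOC101254980 was at 7.91, 5.43 and 10.0 TPM in the WT meristem and 0.04, 0 and 0.07 in the differentiation zone (log2 fold change -7.75, SE 0.45, edgeR adjusted p = 1.59e-06, or -8.50 without WT differentiation replicate 3). TLRP had 1.3, 13.6 and 1.90 TPM in the WT meristem and 0, 0.15 and 0.13 in the differentiation zone (log2 fold change -6.22, SE 1.47, edgeR adjusted p = 0.00467), the highest meristem value being that of replicate 2, without which the log2 fold change was -4.05 with an edgeR adjusted p of 0.000669. LOC101252233 had 1.85, 0.85 and 0.86 TPM in the meristem and 0, 0.23 and 0 in the differentiation zone (log2 fold change -4.31, SE 0.82, edgeR adjusted p = 0.00136). The last value rests on few reads in the differentiation zone, and was -7.56 without WT differentiation replicate 2 and -3.67 without replicate 3.

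In *dgt*, LOC101055507, a lower member, was at 0 in all meristem libraries and at 20.4, 23.2 and 20.1 TPM in the differentiation zone, at least 136-fold higher. LOC101267720 had 0.04, 0.14 and 0.02 TPM in the meristem and 65.3, 61.4 and 74.4 in the differentiation zone (log2 fold change 9.42, SE 0.24, edgeR adjusted p = 1.29e-12, or 10.49 without *dgt* meristem replicate 2). LOC101247879 had 0.56, 0.52 and 0.24 TPM in the meristem and 284, 229.9 and 299.8 in the differentiation zone (log2 fold change 8.80, SE 0.21, edgeR adjusted p = 7.28e-13). These 3 lower members were thus genes of the differentiation zone in *dgt*. In the other direction, LOC101260021 had 6.70, 8.34 and 5.44 TPM in the *dgt* meristem and 0.18, 0.05 and 0 in the differentiation zone (log2 fold change -6.83, SE 0.42, edgeR adjusted p = 2.78e-09, or -8.06 without *dgt* differentiation replicate 1). LOC101254980 (log2 fold change -5.69, SE 0.26, edgeR adjusted p = 1.46e-10, or -6.46 without *dgt* differentiation replicate 2) and LOC101248536 (log2 fold change -4.43, SE 0.14, edgeR adjusted p = 6.84e-12) followed. LOC101254980 was also at 0 in every WT elongation zone library and at 2.40, 2.19 and 5.21 TPM in *dgt*, at least 28.7-fold higher.

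By mean TPM, the zone of highest expression in WT was the differentiation zone for 114 of the 132 higher members that passed 2 TPM in some zone, the meristem for 13 and the elongation zone for 5. That is 86.4% for the differentiation zone, against 44.7% of all expressed genes. In *dgt* it was the differentiation zone for 92 of 164, the elongation zone for 65 and the meristem for 7. That is 56.1%, 39.6% and 4.27%, against 42.3%, 26.4% and 31.2% of all expressed genes. Of the lower members, 15 of 31 (48.4%) were highest in the WT differentiation zone, close to the 44.7% of all expressed genes. Another 12 (38.7%) were highest in the WT elongation zone, against 20.4%. Among these 12 were the short RNAs LOC112941726, LOC112941228 and LOC112939982. They had at most 5.12 expected counts in any elongation zone library, so their zone of highest expression rests on few reads. For *dgt*, 21 of 29 (72.4%) peaked in the differentiation zone, against 42.3%. Only 2 (6.9%) peaked in its elongation zone, against 26.4%. The elongation zone level of each genotype enters both the rule and the peak, so these are descriptions.

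The higher members fell into a few patterns. In 89, both genotypes were highest in the differentiation zone: the median of the mean TPM was 1.06 in the WT elongation zone, 18.9 in the WT differentiation zone, 18.6 in the *dgt* elongation zone and 48.6 in the *dgt* differentiation zone. The median of the *dgt* elongation zone was thus near that of the WT differentiation zone, but single genes differed in both directions. LOC101248516 had a mean of 355 TPM in the *dgt* elongation zone and 71.8 in the WT differentiation zone, and LOC101247468 9.66 and 49.5. In 24, among them Glb2, PSK2 and FZY2, WT was highest in the differentiation zone and *dgt* in the elongation zone, with medians of 1.92, 8.31, 17.3 and 12.9 TPM in the same order. In 34, WT stayed at or under 2 TPM in every zone and *dgt* was highest in the elongation zone, where the mean ranged from 1.15 to 130.3 TPM with a median of 6.06. LOC101252233, LOC101251041, SlGPAT6 and LOC101260021 belong to these, as do the tRNA genes and MIR156d. In 13, WT was highest in the meristem, as for LOC101251833. Without WT meristem replicate 2 this held for 12, since TLRP fell to a mean of 1.6 TPM there, and cat1 stood at 13.8 TPM in the meristem beside 13.7 in the differentiation zone.

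Over all 168 higher members, the mean of the *dgt* elongation zone exceeded the mean of the WT differentiation zone for 132, as it did for 50.0% of the genes tested in the elongation zone. In 102, every *dgt* elongation zone library exceeded every WT differentiation zone library (31.5% of tested genes), in 18 every one lay below (28.6%), and the rest overlapped. For 21 of the 32 lower members, every *dgt* elongation zone library lay below every WT differentiation zone library. These counts are of TPM without TMM scaling. The *dgt* elongation zone level entered the rule, so they describe the members and are no test.

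**Figure D4:**
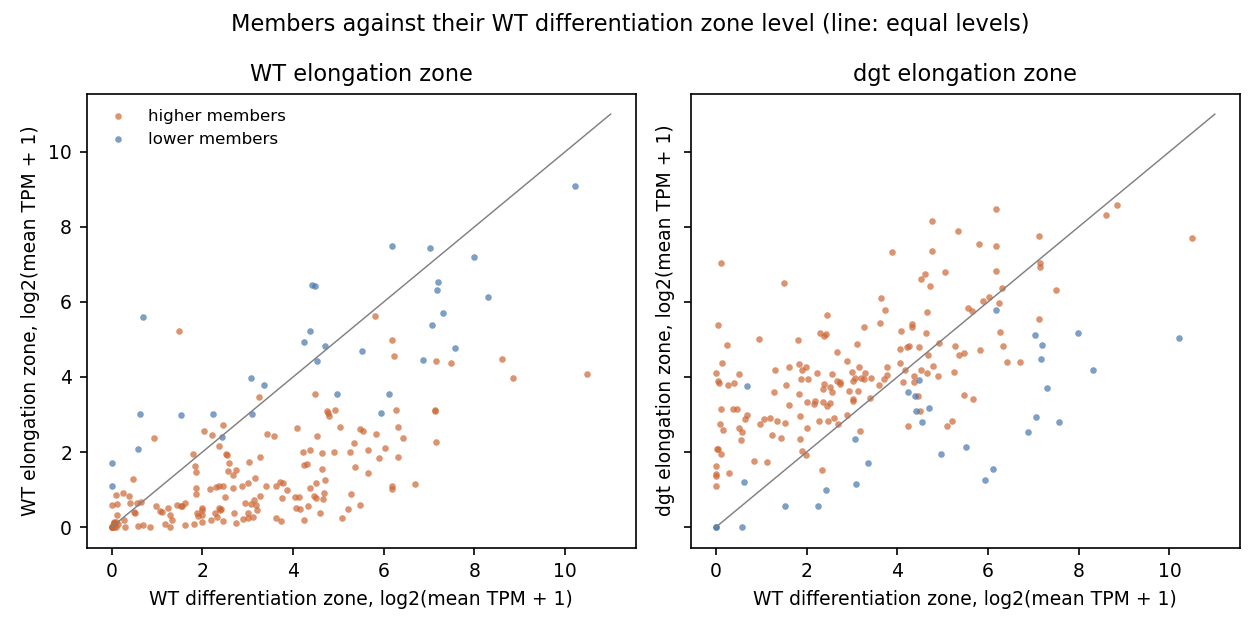
Mean TPM of each member in the WT differentiation zone (horizontal axes, log2(TPM + 1)) against its mean in the WT elongation zone (left) and in the *dgt* elongation zone (right), with equal levels as a line. Higher members (orange) lie mostly below the line in WT, and 132 of 168 lie above it in *dgt*, while most lower members (blue) lie below it in *dgt*.

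Other genes of the outer zones were measured beside the members. Non-members called higher in the WT differentiation zone than in the WT meristem numbered 5751 among those tested in the elongation zone, and their median log2 fold change there was -0.04, with 12.6% called higher and 8.38% lower. Among 4789 non-members called lower in the WT differentiation zone, 4.59% were called higher in the *dgt* elongation zone and 3.38% lower. Among 8681 called neither way, these shares were 5.49% and 2.02%. Summed over 6037 non-members called higher in the WT differentiation zone, the share of all TPM was 32.5 to 35.6% in WT elongation zone libraries. In *dgt* it was 30.4 to 33.2%, and the ranges overlap. For 5239 genes called lower in the differentiation zone it was 24.0 to 26.4% in WT and 24.0 to 27.1% in *dgt*. The 13 markers of dividing cells summed to 630.5 to 712.6 TPM in the WT elongation zone and 486.4 to 758.5 in *dgt*, beside 2184 to 2621 in the WT meristem. The 41 markers of elongating cells (expansins, xyloglucan endotransglucosylases, aquaporins, 1 of them at 0 everywhere) summed to 28290 to 34650 TPM in WT and 20920 to 21930 in *dgt* without overlap, beside 2107 to 2354 in the WT meristem, and of 37 tested 2 were called higher and 7 lower. In the differentiation zone these 41 genes summed to 24210 to 34060 TPM in WT and 19530 to 26830 in *dgt*. The WT sums of the 2 zones overlapped, so the sum does not set the elongation zone apart from the differentiation zone. The 11 aquaporins among these markers, split off after the values were seen, carried most of the sum in the elongation zone. They were at 24890 to 30780 TPM in WT and 18060 to 18590 in *dgt*. The 30 wall genes summed to 3228 to 3867 TPM in WT and 2704 to 3349 in *dgt*, which overlapped. The part of these markers in the members' change was not tested. All sums and shares in this comparison are of TPM without TMM scaling, and their overlaps were not checked after it. The TMM factors were 0.786 to 0.930 in WT elongation zone libraries and 1.08 to 1.14 in *dgt* ones. The lists for root hairs and for endodermis and suberin held 1 and 2 genes and that for vascular tissue none.

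The place of members in the genome was read from the order of genes. Of 189 members placed in the gene order of assembly SLM_r2.1, 42 lay in 17 runs with at most 4 genes from one member to the next. In every run all members differed in 1 direction. With 168 of the 200 members higher, most neighbouring members would share a direction anyway, and the runs were not compared with those of other genes. LOC104646779, LOC112941248, LOC104646777 and LOC104646690 are adjacent, with L of 4.50, 4.66, 4.58 and 4.64. LOC101248516, LOC101249017 and LOC104649376 are adjacent too, with L of 7.39, 3.74 and 3.85, and the genes on either side had L between -0.17 and 0.05. The run of LOC104647576, LOC101262618, LOC101262313 and LOC101262012 had L from 1.49 to 3.93.

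Around LOC101252233, the run of LOC101253031, LOC101252233 and LOC101251423 reached further than the rule took. LOC101252534 between them, not a member, had an L of 3.16, and XIP1-1-beta next to them, an aquaporin-like gene of the uncategorised intrinsic proteins, had 4.84. The lower run of LOC109118982, LOC101255148, LOC109119992 and LOC101255443 had L of -1.84, -2.44, -1.59 and -2.00, with the genes between them at 0.66 and -0.35. LOC101247879 and LOC101248159, both lower, are adjacent as well, as are the higher members LOC109119816 and LOC101244627. RSEM divides reads that fit several transcripts, and 165 of 168 higher and 30 of 32 lower members had an expected count that was not whole in some library, as had 91.6% of all genes. Neighbouring members may therefore share reads, which was not tested, and their values may not be independent.

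**Figure D5:**
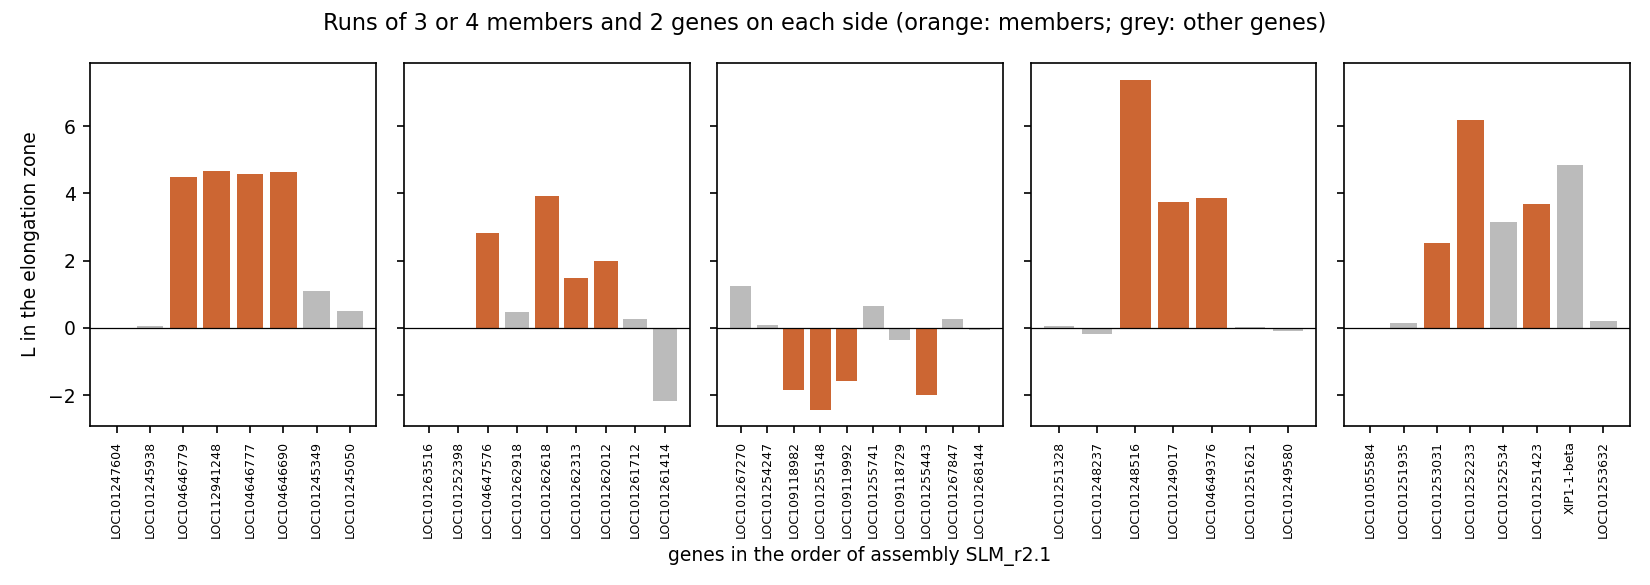
L in the elongation zone (vertical axis) for the 5 runs of 3 or 4 members (orange) and the genes between and beside them (grey), in the gene order of assembly SLM_r2.1 (horizontal axis). The adjacent members LOC104646779 to LOC104646690 have L from 4.50 to 4.66, and XIP1-1-beta (4.84) lies beside members without being one.

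The median transcript length was 1377.5 bases for higher members, 1235.5 for lower members and 1518 for all genes with reads. More than 1 transcript was annotated for 27 higher and 2 lower members, 16.1% and 6.25%, against 25.6% of all genes. Of these 29, 22 passed 2 TPM both in the *dgt* elongation zone and in the WT differentiation zone, and 15 of the 22 had the same leading transcript in both. LOC101248516 is an example, with its leading transcript at 57.7% of the gene in the *dgt* elongation zone and 59.2% in the WT differentiation zone, and TBG5 another, at 44.3% and 42.7%.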

How the data were processed

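RNA-Seq libraries of 3 root zones and 2 genotypes were analysed, 18 in all. Per the submitters' processing notes, reads were processed with CASAVA 1.8.2 and RSEM, and the authors aligned them to transcripts of the Heinz tomato genome. The authors deposited, for each gene, the expected count that RSEM estimated, without normalization, and the TPM, scaled by length and library total. In their deposited isoform files the percent of a gene's expression that each transcript holds was read together with its TPM. The authors' comparison tables hold posterior probabilities and fold changes from EBSeq and were not used.

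L, the score and the members were computed from the deposited TPM with a pseudocount of 1. The members, the gene lists and the tests were chosen with earlier results of these data known. After rounding, the expected counts were fitted with edgeR 4.0.16 in R 4.3.3 (filterByExpr with minimum count 10 and minimum total 15, TMM, glmQLFit, glmQLFTest), on the 6 libraries of each comparison. A gene was called at a Benjamini-Hochberg adjusted p-value under 0.05 over all tested genes and a fold over 2. The scripts were tested on simulated data. The replicates were biological replicates per the labels, and p-values measure the spread between these pools. Replicate pairs had a chi-square of at least 5.00 per degree of freedom, so none was a repeat deposit. Library totals of 17919441 to 29133603 make counting error small beside the variation of 3 replicates for genes with many reads. This does not hold for the short RNAs and other members with few counts. Bounds on folds used 3 counts per library and cover counting error only.

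Named were the 12 higher and 12 lower members with the highest score, the 5 of each most abundant in the elongation zone, every member with a gene symbol, the genes at the limit and the 3 called members with the largest fold each way between outer zones. Symbols came from the files or from a RefSeq table of genes (assembly SLM_r2.1), which matched 189 members and 26933 of 29922 genes and gave the gene order. Its coordinates were not used, because the authors mapped to another assembly. Its listing gives no products, so lists were formed by symbol. Promoter motifs and protein likeness were planned and not analysed here. Alternatives were DESeq2 1.42.0, RLE size factors, no low-count filter, a replicate block, 1 fit of all libraries, other pseudocounts, medians, TMM-scaled TPM, a level filter and leaving out each replicate. Leaving out genes with an effective length under 100 bases was added after seeing the data. Python 3.11.15, pandas 2.3.3, numpy 2.4.6 and matplotlib 3.10.9 did the rest.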

Additional observations from a re-analysis of the deposited data

Results flagged for a closer look

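LOC101256987, a higher member, was called in opposite directions in 2 zones. Its TPM in the elongation zone was 9, 26.4 and 12.5 in WT and 145.9, 102.8 and 373 in *dgt*, without overlap. In the meristem it was 4.24, 45.2 and 21.1 in WT and 3.57, 3.34 and 3.95 in *dgt*, with every *dgt* library below every WT library and with the widest spread in WT. The log2 fold changes were 3.40 for the elongation zone and -3.00 for the meristem (SE 0.81, edgeR adjusted p = 0.0336). The rule used the *dgt* to WT ratios of both zones, so these fold changes and the adjusted p-values here describe the gene and are no test. The difference between the zones was not tested, because the rule chose the gene by it. The fall in the meristem became -1.76 without WT meristem replicate 2 (adjusted p = 0.00811), and its call was lost with a replicate block (adjusted p = 0.074), without WT meristem replicate 3 (adjusted p = 0.0588) and without any one *dgt* meristem replicate (adjusted p from 0.113 to 0.12).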

How the results depend on the processing

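The choice of members rested most on the pseudocount: 84 of the 200 were kept at 0.1 TPM and 117 at 5 TPM, and the cause was not tested. TMM-scaled TPM kept 169, medians in place of means 153, genes over 2 TPM only 195, and leaving out genes with an effective length under 100 bases 187. Leaving out 1 library kept between 162 (without *dgt* elongation replicate 3) and 192. TMM scaling moved the median L of expressed genes by -0.29 in the elongation zone and by -0.15 in each other zone, and turned the sign of L in the elongation zone for 0 members, but for 11 higher and 4 lower members in the meristem and 8 and 5 in the differentiation zone. The total counts of members called kept within 1.5 times of their values under every alternative run, but some small counts by direction did not. Over all members, those called lower in the meristem went from 3 to 9 with all 18 libraries in 1 fit, 7 with DESeq2, 5 without a low-count filter and 6 without WT meristem replicate 1, and those called lower in the WT differentiation zone than in the WT meristem from 13 to 20 with all 18 libraries in 1 fit. Lower members called lower between the outer zones, 1 in WT and 2 in *dgt*, reached at most 4 in each. Leaving out 1 replicate gave 182 to 185 members called in the elongation zone, 67 to 94 in the meristem, 83 to 95 in the differentiation zone, 143 to 151 between the outer zones of WT and 162 to 166 between those of *dgt*. Over all genes, the count called in the meristem was 2561, or 78.8% higher, and 4054, or 62.6% higher, without WT meristem replicate 2. The correlations of deviations between libraries of the same replicate number were 0.20, 0.07 and -0.06 in the elongation zone. Over all comparisons they ran from -0.20 to 0.20. They show no strong pairing by replicate number, but values this weak cannot exclude a shared harvest or batch. With a replicate block, 183, 71 and 91 members were called in the elongation zone, meristem and differentiation zone, 146 and 160 between the outer zones of WT and *dgt*, and the rule over within-number ratios kept 154. Depth limits the short RNAs and the members with few counts: 21 higher members had at most 3 expected counts in every WT elongation zone library and 6 lower members in every *dgt* one.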
